A study of Rattus norvegicus with 24 samples.

Results

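The tRNA-Ile features are the rows of the small RNA tables whose names end in -IleAAT or -IleTAT, that is, annotated rat tRNA genes for isoleucine, each with a number and an anticodon. They were taken by name, and the 2 features described in every library, tRNA1652-IleAAT and tRNA2353-IleTAT, were picked because they had already been seen to differ in how far TBI and sham rats stood apart. The cortical count table listed 15 such features, 12 with the anticodon AAT and 3 with TAT, among 444 tRNA features and 1172 rows in all, and it listed no other isoleucine anticodon. The thalamic table of CPM (reads scaled to 1000000 per library) held 10 of them (7 AAT and 3 TAT) among 266 tRNA features and 641 rows. The cortical CPM table held 6 (5 AAT and 1 TAT) among 253 tRNA features and 606 rows, and those 6 were the ones found in both CPM tables.

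Each of 12 adult male Sprague-Dawley rats gave a small RNA library of the perilesional cortex and one of the thalamus on the same side, 3 months after surgery. TBI rats (n = 6) had lateral fluid-percussion injury, a brief fluid pressure wave applied to the intact dura over the left parietal lobe. Sham-operated rats (n = 6) had the anesthesia and the craniectomy without the pressure wave. The TBI rats had been selected by the study for chronic inflammation on imaging, which limits the comparison to such rats. No transgene is described, and no drug was part of the group design. Imaging under isoflurane is described for TBI rats only. Rats with signs of pain received carprofen, and its use by group is not stated. RNA came from whole dissected tissue, so more fragments per cell and a change in the mix of cells cannot be told apart.

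Transfer RNAs carry amino acids to the ribosome and read the codons of the messenger RNA through their anticodon. The isoleucine isoacceptors listed here are those with the anticodons AAT and TAT. The AAT form has its first anticodon base deaminated to inosine, which lets it read several isoleucine codons, and the TAT form reads ATA and is encoded by genes with an intron that is spliced out. Cleavage of tRNAs by nucleases such as angiogenin yields tRNA-derived fragments, known as products of stressed or damaged cells, and short-insert libraries such as these hold fragments and not the full tRNA. The RefSeq gene list for the rat assembly GRCr8 names 9 genes for the AAT form and 3 for the TAT form. The numbers in the feature names do not occur there, so no feature could be tied to a gene or a position.

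Each value below is in CPM, the reads of a feature scaled so that each library sums to 1000000 over the features in the CPM table of that library. CPM takes no account of length, so shares and ratios between features are shares of reads. One read was worth 0.222 to 1.18 CPM in cortex and 0.221 to 1.62 CPM in thalamus, and miRNA reads per library ran from 744564 to 4069284 and from 523298 to 4139901. A count of 0 in the shallowest library would allow up to 3.54 CPM in cortex and 4.87 CPM in thalamus (3 reads, counting error only, since copies made by PCR are not independent molecules). Many Ile features sat near these limits. The brain miRNA list (miR-124-3p, miR-9a-5p, miR-128-3p and miR-138-5p) summed to between 127240 and 394649 CPM over the 24 libraries, and all 4 were present in each group, as the labelled tissues would have.

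tRNA1652-IleAAT was higher in every TBI library than in any sham library, in both regions. In the sham cortex, rats 32, 26, 38, 50, 55 and 34 had 3.78, 4.07, 5.54, 7.04, 8.12 and 10.7 CPM. In the TBI cortex, rats 63, 45, 56, 52, 22 and 24 had 23.4, 26.5, 30.7, 38.6, 39.5 and 51.6 CPM. The lowest TBI value was thus above the highest sham value, and the means were 35.1 ± 10.3 and 6.55 ± 2.65 CPM (SD, n = 6 each), a ratio of 5.35. Behind these values were 6 to 24 reads in a sham library and 26 to 131 in a TBI library. In the thalamus, sham rats 55, 26, 50, 32, 34 and 38 had 6.38, 7.67, 11.6, 12.5, 14.3 and 14.8 CPM. TBI rats 22, 56, 63, 52, 24 and 45 had 38.9, 47.1, 51.8, 54.2, 78.2 and 96.0 CPM. The means of 61.0 ± 21.6 and 11.2 ± 3.46 CPM (SD, n = 6 each) stood in a ratio of 5.45, again without overlap. The order of the rats differed between the regions, and the TBI rat with the highest thalamic value, rat 45, had the next-to-lowest cortical value of its group.

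tRNA2353-IleTAT had no such separation. In the sham cortex, rats 26, 38, 32, 34, 55 and 50 had 1.02, 3.39, 4.44, 10.7, 15.2 and 24.6 CPM. In the TBI cortex, rats 56, 63, 45, 22, 52 and 24 had 3.54, 6.58, 12.6, 13.1, 13.4 and 28.7 CPM. The ranges overlapped nearly in full, with 1 TBI library above the highest sham library, and the means were 13.0 ± 8.70 and 9.91 ± 8.92 CPM (SD, n = 6 each). In the thalamus, sham rats 50, 34, 26, 38, 32 and 55 had 7.99, 9.93, 11.3, 12.6, 14.4 and 23.9 CPM. TBI rats 56, 22, 63, 24, 45 and 52 had 4.87, 12.0, 15.4, 16.1, 20.9 and 26.1 CPM. The thalamic means were 15.9 ± 7.28 and 13.4 ± 5.63 CPM (SD, n = 6 each), a ratio of 1.19 beside 1.31 in cortex. Its spread within groups was wide, with a coefficient of variation of 90.0% in the sham cortex, where read counting alone at these depths would give 36.4%. The lowest TBI value in each region came from rat 56, the shallowest TBI library of that region, on 3 reads.

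**Figure D1:**
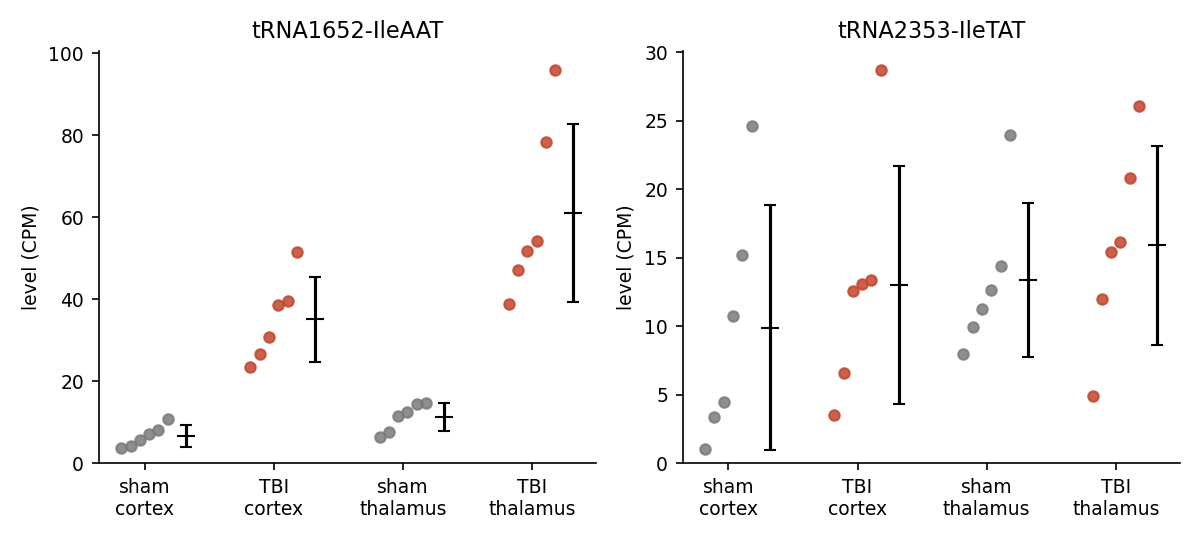
Level in CPM (linear axes from 0, separate for each panel) of tRNA1652-IleAAT and tRNA2353-IleTAT in each library, with points sorted within a group and the mean ± SD beside them (n = 6 rats per group). The TBI and sham points of tRNA1652-IleAAT do not overlap in either region (23.4 against 10.7 CPM at the nearest in cortex), while those of tRNA2353-IleTAT do in both.

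For the fold changes, cortical counts of miRNAs and tRNA features were fitted together in edgeR after scaling by trimmed mean of M-values (TMM), and thalamic CPM in limma on log2(CPM + 1), which understates changes of low features. tRNA1652-IleAAT had a log2 fold change (TBI over sham) of 2.19 (SE 0.24) in cortex and a difference of 2.33 (SE 0.27) on the log2(CPM + 1) scale in thalamus. These were the largest of the 645 features tested in cortex and of the 640 tested in thalamus. tRNA2353-IleTAT had 0.43 (SE 0.51) and 0.17 (SE 0.35), so that its standard error exceeded its estimate in both regions. Its estimate rested on single libraries, running from 0.12 without TBI rat 24 to 0.84 without sham rat 50 in cortex, and in thalamus from 0.0039 without TBI rat 52 to 0.44 without TBI rat 56. Since both features were chosen with this contrast known, these values describe them and are no test.

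Of the 10 Ile features tested in each region, 1 passed an adjusted p of 0.05 in cortex (edgeR quasi-likelihood test) and 1 in thalamus (limma), tRNA1652-IleAAT in both, beside 4.34% of all features tested in cortex (28 of 645) and 2.19% in thalamus (14 of 640). The contrast had served to choose that feature, so the count carries no weight of its own. The other 9 all had estimates above 0 in both regions, and none passed. Of these 9, 3 in each region had an unadjusted p under 0.05 (edgeR and limma). So had 119 of all 645 features in cortex and 51 of all 640 in thalamus. In thalamus the lowest second-highest value of an Ile feature was 10.4 CPM (tRNA5727-IleAAT). In sham alone it was only 6.74 to 9.21 CPM for tRNA1602-IleAAT, tRNA2454-IleAAT, tRNA3889-IleAAT, tRNA5727-IleAAT, tRNA253-IleTAT and tRNA1651-IleTAT. These may thus have entered the thalamic CPM table through TBI libraries. The sign of their thalamic estimates carries no weight of its own. Under scaling by library size alone, where the median of all features stood at 0.30, tRNA10837-IleAAT and tRNA1602-IleAAT also passed in cortex (adjusted p = 0.0122 and 0.0376 in edgeR). Of all features tested, 49.8% had estimates above 0 in cortex and 56.6% in thalamus, and of the tRNA features 59.9% and 76.7%.

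Among the other AAT features, the fold changes in cortex lay close together, from 0.46 (SE 0.37) for tRNA3889-IleAAT to 0.76 (SE 0.22) for tRNA10837-IleAAT. In thalamus they ran from 0.25 (SE 0.37) for tRNA5727-IleAAT to 0.76 (SE 0.28) for tRNA1602-IleAAT. Each was less than 1 on the log2 scale, against more than 2 for tRNA1652-IleAAT. With tRNA1652-IleAAT included, the median of the 7 AAT features was 0.55 in cortex and 0.38 in thalamus, beside 0.09 and 0.27 for all tRNA features and -0.00 and 0.06 for all features tested. The 3 TAT features had medians of 0.43 and 0.31. Their smallest fold change was that of tRNA1651-IleTAT in cortex (0.13, SE 0.41) and that of tRNA2353-IleTAT in thalamus, and their largest was that of tRNA253-IleTAT in both regions (0.57, SE 0.28, and 0.87, SE 0.29). The median of the TAT features was thus not far from that of the AAT features, and what stood apart between the anticodons was 1 feature.

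**Figure D2:**
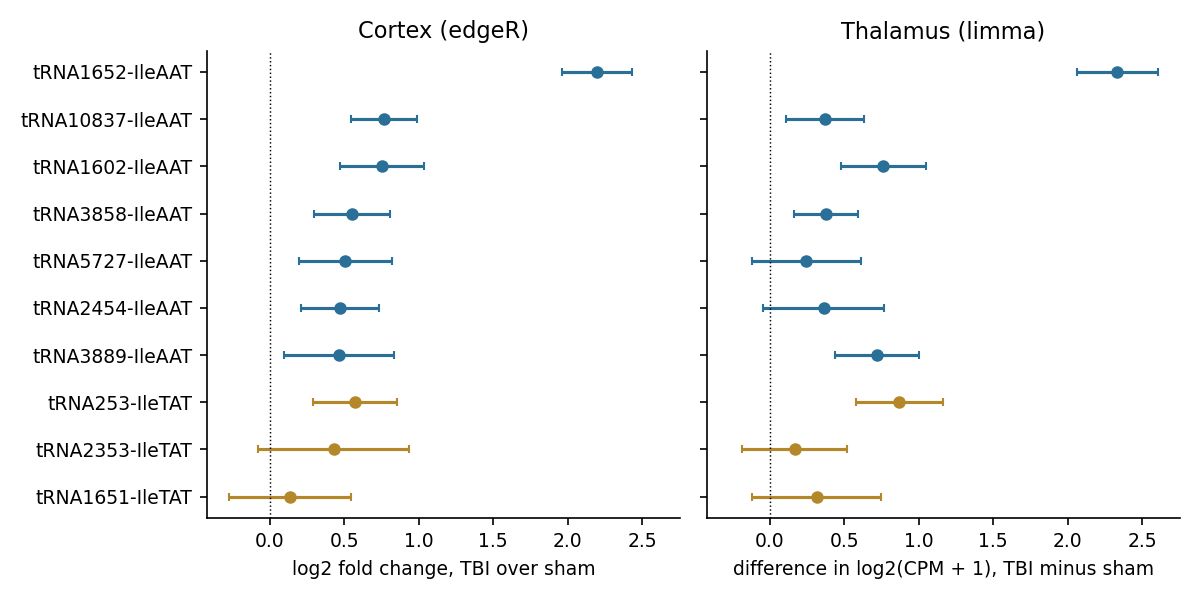
Estimated log2 difference between TBI and sham with its standard error (horizontal bars, n = 6 rats per group) for the 10 Ile features tested in each region, AAT in blue and TAT in ochre. In both regions tRNA1652-IleAAT sits above 2 and the other 9 features between 0 and 1.

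tRNA10837-IleAAT and tRNA3858-IleAAT were, beside the members described first, the Ile features with a mean of at least 10 CPM in a region. tRNA10837-IleAAT ranged from 3.52 to 8.50 CPM (median 6.61) in the sham cortex and from 8.78 to 18.9 CPM (median 13.7) in the TBI cortex. Its cortical groups did not overlap, as was so with all TBI libraries above every sham library for 3.72% of the features tested (24 of 645), yet its adjusted p was 0.0609 in edgeR. That holds for CPM by library size. With TMM factors the groups overlapped (9.31 CPM in sham rat 26 against 8.99 CPM in TBI rat 63), whereas tRNA1652-IleAAT remained apart (lowest TBI value 22.8 CPM, highest sham value 9.71 CPM), as did 2.02% of the features tested (13 of 645). In thalamus it had 11.7 ± 4.26 CPM in sham and 15.1 ± 3.99 CPM in TBI (SD, n = 6 each), with overlap and a log2 difference of 0.37 (SE 0.26). tRNA3858-IleAAT had 7.95 ± 3.65 and 15.1 ± 2.12 CPM (SD, n = 6) in the sham and TBI cortex, and 5 of 6 TBI libraries exceeded the highest sham value of 13.0 CPM. Its fold changes of 0.55 (SE 0.26) and 0.38 (SE 0.21) did not pass (adjusted p = 0.261 in edgeR and 0.694 in limma). In thalamus all TBI libraries lay above every sham library for 2.5% of the features tested (16 of 640), and tRNA1652-IleAAT was the only one of the 10 Ile features among them.

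Of the 15 features of the cortical count table, 5 had too few reads to be tested, all of them AAT. tRNA3871-IleAAT had 59 reads over the 12 libraries and lay between 0.444 and 2.35 CPM in sham and between 2.36 and 4.64 CPM in TBI, without overlap but by a narrow gap, and with overlap under TMM factors (lowest TBI value 2.23 CPM, highest sham value 2.504 CPM). tRNA1654-IleAAT had 83 reads, at 2.33 ± 0.666 CPM in sham and 3.99 ± 1.09 CPM in TBI (SD, n = 6). tRNA1619-IleAAT and tRNA5590-IleAAT had 11 and 4 reads in all, and those of tRNA5590-IleAAT were all in sham libraries. tRNA8765-IleAAT had 0 reads in every cortical library. The cortical CPM table kept the features whose second-highest value reached 10.1 CPM or more and left out those at 9.84 CPM or less, the nearest on either side being tRNA1602-IleAAT and tRNA2454-IleAAT.

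The reads of an anticodon were then summed, and the part that 1 feature took of its sum was followed. The AAT sum over 12 cortical features was 104 ± 20.5 CPM in TBI and 42.5 ± 10.9 CPM in sham. Without tRNA1652-IleAAT it was 68.6 ± 11.5 and 36.0 ± 9.51 CPM (SD, n = 6), a ratio of 1.91, and 5 of 6 TBI libraries stood above the highest sham library. In thalamus the AAT sum without that feature was 71.4 ± 19.8 and 48.6 ± 6.06 CPM, a ratio of 1.47, with 5 of 6 TBI libraries above the highest sham library. Of the features in that sum, tRNA1602-IleAAT, tRNA2454-IleAAT, tRNA3889-IleAAT and tRNA5727-IleAAT may have entered the thalamic CPM table through TBI libraries. The thalamic ratio may thus be in part built in and is no test. The TAT sum was 25.3 ± 12.4 and 18.4 ± 9.86 CPM in cortex (SD, n = 6). In the TBI thalamus it was 37.6 ± 14.8 CPM (SD, n = 6), 1.45 times the sham mean, and tRNA253-IleTAT and tRNA1651-IleTAT may have entered the thalamic table in the same way. These sums are in CPM by library size, and in cortex that scaling put the median fold change of all features at 0.30 on the log2 scale where TMM put it at -0.00. Part of each cortical ratio of sums is thus a shift shared with the table as a whole.

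Shares within an anticodon do not depend on such scaling. tRNA1652-IleAAT took 10.4, 10.5, 12.3, 16.7, 17.3 and 26.7% of the AAT reads in the sham cortex (rats 26, 32, 38, 50, 34 and 55). In the TBI cortex it took 26.3, 31.4, 34.6, 34.7, 34.9 and 38.8% (rats 45, 63, 52, 56, 22 and 24). The sole overlap was between the TBI rat 45 and the sham rat 55, whose share rested on 8 of 30 AAT reads (95% Wilson interval 14.2 to 44.4%). In thalamus the sham shares were 12.1, 12.9, 19.0, 20.4, 22.1 and 25.4% (rats 26, 55, 50, 34, 32 and 38), and the TBI shares were 37.0, 43.7, 43.8, 47.0, 49.6 and 53.7% (rats 22, 52, 63, 24, 45 and 56). These did not overlap. The mean share was 33.4% ± 4.20 against 15.6% ± 6.17 in cortex and 45.8% ± 5.72 against 18.6% ± 5.22 in thalamus (SD, n = 6 each). The log2 ratio of tRNA1652-IleAAT to the summed other AAT features (11 in cortex, 6 in thalamus, nothing added) was thus higher in TBI than in sham, by 1.51 in cortex and 1.93 in thalamus. tRNA2353-IleTAT took 48.7% ± 11.0 of the TAT reads in the TBI cortex and 45.7% ± 24.0 in the sham cortex, and 41.3% ± 9.80 and 50.2% ± 12.8 in thalamus (SD, n = 6), with overlap in both regions.

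**Figure D3:**
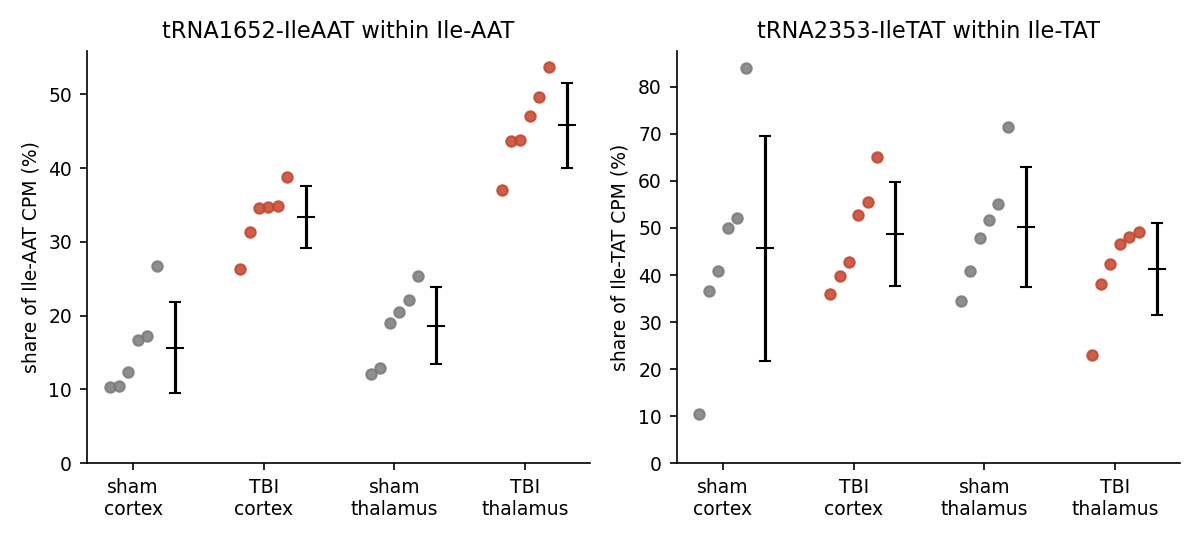
Share (%) of tRNA1652-IleAAT in the summed Ile-AAT reads and of tRNA2353-IleTAT in the summed Ile-TAT reads, by library, with the mean ± SD beside the points (n = 6 rats per group, axes from 0). The share of tRNA1652-IleAAT is 26.3 to 38.8% in the TBI cortex and 37.0 to 53.7% in the TBI thalamus against at most 26.7% in any sham library, while the share of tRNA2353-IleTAT overlaps between groups.

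Whether the remaining AAT features kept their proportions was described by the chi-square per degree of freedom of the cortical counts over the 12 libraries, which is near 1 where features differ between libraries by read sampling alone. Over the 8 AAT features with a mean of at least 5 reads it was 2.24. Without tRNA1652-IleAAT the other 7 gave 1.01, near what read sampling alone would give. Expected counts went down to 1.22 reads, so modest differences in proportion could go unseen. Each of those 7 set against tRNA1652-IleAAT alone gave 3.81 to 7.17. The 12 libraries include both TBI and sham, and tRNA1652-IleAAT was chosen with that contrast known. Its excess thus describes it and is no test. The 3 TAT features gave 2.81, and 1.64 without tRNA2353-IleTAT. Near-identical tRNA copies can share reads, and how the authors assigned such reads is not given in the sources used here, so values of single features are uncertain to that extent.

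The contrast of the isoacceptors was taken within each library as the log2 ratio of the summed AAT features to the TAT feature, each with 1 CPM added, over the 6 features present in both CPM tables. The ratio was 2.73 in TBI and 1.89 in sham in cortex, and 2.81 and 1.78 in thalamus. The gap between the group means was 0.84 in cortex, less than the pooled SD of 1.07, and 1.03 in thalamus, more than the pooled SD of 0.68. Leaving out 1 rat moved the cortical gap from 0.51 (without sham rat 50) to 1.19 (without sham rat 26) and the thalamic gap from 0.77 to 1.22. The cortical CPM table had let in the 5 AAT features through TBI libraries, since the second-highest sham value was at most 9.39 CPM (tRNA3858-IleAAT), while that of tRNA2353-IleTAT was 15.2 CPM, so that the cortical gap rests on features admitted through the group where they were high. Over all 10 Ile features of the thalamic table, with cortical values from the counts, an alternative chosen after seeing the data, the gap was 0.88 in cortex (pooled SD 0.76) and 0.64 in thalamus (pooled SD 0.44). Several of these features, of both anticodons, may have entered the thalamic table through TBI libraries as well. Over the features present in both CPM tables, leaving out tRNA1652-IleAAT gave gaps of 0.40 in cortex and 0.29 in thalamus. With tRNA1652-IleAAT alone over tRNA2353-IleTAT the means were 1.55 in TBI and -0.13 in sham in cortex and 1.95 and -0.21 in thalamus. For that last ratio the TBI and sham libraries did not overlap in thalamus, and 4 of 6 TBI libraries exceeded the highest sham library in cortex. The anticodon pair had been chosen on this contrast, and no test was made of it.

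The regions could be compared within a rat, over the same 6 features. In sham rats the isoacceptor ratio of cortex minus thalamus was 0.11 ± 1.34 (SD, n = 6), higher in cortex in 3 of 6 rats (exact two-sided sign-flip permutation test, p = 0.875, adjusted p = 0.875 over both groups). In TBI rats it was -0.08 ± 0.69 (SD, n = 6), higher in cortex in 3 of 6 rats (exact permutation test, p = 0.781, adjusted p = 0.875). The smallest p that 6 pairs allow is 0.0312. In both groups the SD between rats was several times the mean difference, so that no regional difference of the ratio was detectable with 6 rats. Over the 10 features of the thalamic table the differences were -0.06 ± 0.75 in sham rats and 0.18 ± 0.66 in TBI rats (SD, n = 6; exact permutation test, p = 0.812 and 0.531, adjusted p = 0.812 over both groups).

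**Figure D4:**
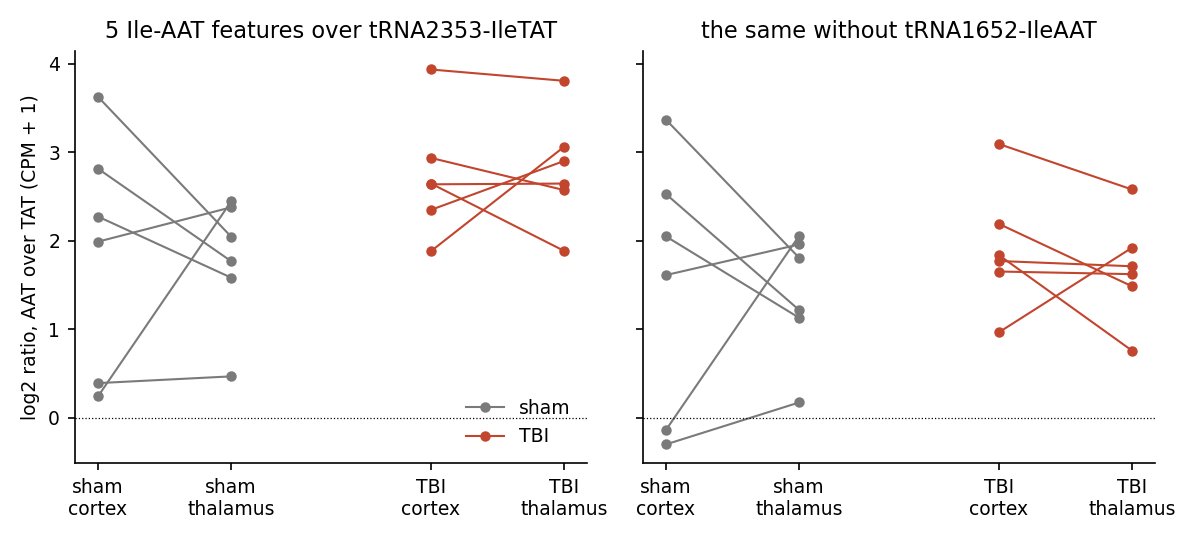
Log2 ratio of the summed Ile-AAT features to tRNA2353-IleTAT (1 CPM added to each) in cortex and thalamus, with lines joining the libraries of 1 rat (6 sham, 6 TBI), for all 5 shared AAT features and without tRNA1652-IleAAT. The lines run in both directions within each group, and the difference between regions averages 0.11 in sham and -0.08 in TBI in the first panel.

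Levels of the 6 shared features were compared between the sham cortex and the sham thalamus in a limma fit over all 24 libraries, on a scale common to both tables. All 6 had estimates below 0, that is, lower in cortex. 1 of them passed, beside 21.8% of all features tested (130 of 595), so the share was near the background. That feature was tRNA10837-IleAAT, with 6.29 ± 1.78 CPM in the sham cortex and 11.7 ± 4.26 CPM in the sham thalamus and a log2 difference of -0.78 (SE 0.24, adjusted p = 0.0195 in limma). The corresponding difference of tRNA1652-IleAAT was -0.71 (SE 0.27, adjusted p = 0.0573 in limma), which passed with the rat as a block (adjusted p = 0.0446, 2 of 6 Ile features). tRNA2353-IleTAT had -0.79 (SE 0.50, adjusted p = 0.266 in limma). The median over all shared features was -0.37 on this scale and 0.00 after TMM scaling, under which none of the 6 passed (limma, 0 with an unadjusted p under 0.05) and tRNA10837-IleAAT had -0.45. In edgeR with TMM on the reads of both regions none passed either, and tRNA10837-IleAAT had -0.51 (adjusted p = 0.251 in edgeR). Without sham rat 26 or sham rat 50, tRNA10837-IleAAT did not pass (adjusted p = 0.0687 and 0.0988 in limma), and without sham rat 34 or 55 a further AAT feature passed.

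Whether TBI acted with unequal size in the regions was tested in the same fit, as an interaction. For tRNA1652-IleAAT it was -0.05 (cortex minus thalamus, SE 0.38, adjusted p = 0.999 in limma), and for tRNA2353-IleTAT 0.43 (SE 0.70, adjusted p = 0.999 in limma). The largest among the 6 was that of tRNA10837-IleAAT, 0.64 (SE 0.34, unadjusted p = 0.0697 in limma), on a scale where the median of all shared features was 0.20. Of all 595 features 0 passed (limma, 0%), and 19 had an unadjusted p under 0.05, none of them an Ile feature. The 95% interval of the difference (limma) ran from -0.83 to 0.73 for tRNA1652-IleAAT and from -1.02 to 1.88 for tRNA2353-IleTAT, so that the test leaves sizeable differences between regions undetected. Here too 5 of the 6 features had entered the cortical table through TBI libraries.

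Related tRNAs were followed through lists set from textbook knowledge. The inosine list holds the other 7 anticodons that begin with A and are deaminated as in Ile-AAT (Ala-AGC, Arg-ACG, Leu-AAG, Pro-AGG, Ser-AGA, Thr-AGT and Val-AAC). Of its 36 features tested in cortex, 2 rose and 0 fell (edgeR, adjusted p; 2.79% of all features tested rose), with a median log2 fold change of 0.16 and a range from -0.73 to 1.15. Of 37 tested in thalamus, 2 rose and 0 fell (limma; 2.19% of all features tested rose), with a median of 0.31. All of those that rose carried Arg-ACG. They were tRNA1630-ArgACG in both regions, tRNA4697-ArgACG in cortex and tRNA1035-ArgACG in thalamus, the last 2 named after their values were seen. The sham thalamic mean of tRNA1035-ArgACG was only 3.14 CPM (SD 1.81, n = 6), while its TBI mean was 9.63 CPM. That feature may thus have entered the thalamic CPM table through TBI libraries, and its rise carries no weight of its own. The leading Arg-ACG feature, tRNA1630-ArgACG, had 18.7 ± 5.89 CPM in TBI and 6.50 ± 1.88 CPM in sham in cortex (SD, n = 6; log2 fold change 1.15, SE 0.27, adjusted p = 0.0242 in edgeR). In thalamus it had 32.2 ± 7.49 and 13.3 ± 5.55 CPM (SD, n = 6; log2 difference 1.26, SE 0.27, adjusted p = 0.0166 in limma). The median of the 7 Ile-AAT features, tRNA1652-IleAAT included, lay above that of the pooled list in both regions (0.55 and 0.38). Several of the 7 may have entered the thalamic CPM table through TBI libraries, so their thalamic place carries no weight of its own. By single anticodon, Arg-ACG had higher medians than Ile-AAT (1.13 in cortex and 1.10 in thalamus, the latter with tRNA1035-ArgACG included). In thalamus so did Thr-AGT (0.43) and Pro-AGG (0.42). The remaining listed anticodons had lower medians.

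The most abundant feature of each of the other inosine anticodons did not pass in either region. In cortex their fold changes were 0.42 for tRNA3877-AlaAGC, 0.29 for tRNA871-LeuAAG, 0.19 for tRNA12850-ProAGG, -0.24 for tRNA491-SerAGA, 0.23 for tRNA14184-ThrAGT and -0.00 for tRNA9183-ValAAC. In thalamus they ran from -0.02 for tRNA871-LeuAAG to 0.45 for tRNA14184-ThrAGT, with 0.11 for tRNA3877-AlaAGC, 0.09 for tRNA5101-ProAGG, 0.31 for tRNA491-SerAGA and 0.37 for tRNA10806-ValAAC. tRNA9183-ValAAC had 417 ± 175 CPM in the TBI cortex and 334 ± 70.1 CPM in the sham cortex (SD, n = 6), so that an inosine tRNA with many more reads than tRNA1652-IleAAT had an estimate near 0.

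The intron list holds the other nuclear anticodons whose genes carry introns, as those of Ile-TAT do (Tyr-GTA, Leu-CAA and Arg-TCT). Of its 16 features in cortex 1 rose and 0 fell (edgeR; 2.79% of all features tested rose), with a median of -0.22. The feature that rose, named after its value was seen, was tRNA6477-ArgTCT (29.4 ± 12.4 against 10.6 ± 3.80 CPM, SD, n = 6; log2 fold change 1.13, SE 0.27, adjusted p = 0.0242 in edgeR). Of the 16 in thalamus none passed in limma, where 2.19% of all features tested did, and the median was -0.11. Among these 16, 1 had an unadjusted p under 0.05 (limma), beside 51 of all 640 features. The leading features, tRNA2056-TyrGTA, tRNA3814-LeuCAA and tRNA2313-ArgTCT, had -0.35, -0.13 and 0.48 in cortex and -0.22, -0.14 and 0.02 in thalamus, and none passed. The 3 Ile-TAT features, all with estimates above 0, stood above the median of this list in both regions. Of these, tRNA253-IleTAT and tRNA1651-IleTAT may have entered the thalamic CPM table through TBI libraries. Their thalamic sign and place carry no weight of their own. In thalamus, however, the median of Arg-TCT alone (0.54) was above that of Ile-TAT (0.31).

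**Figure D5:**
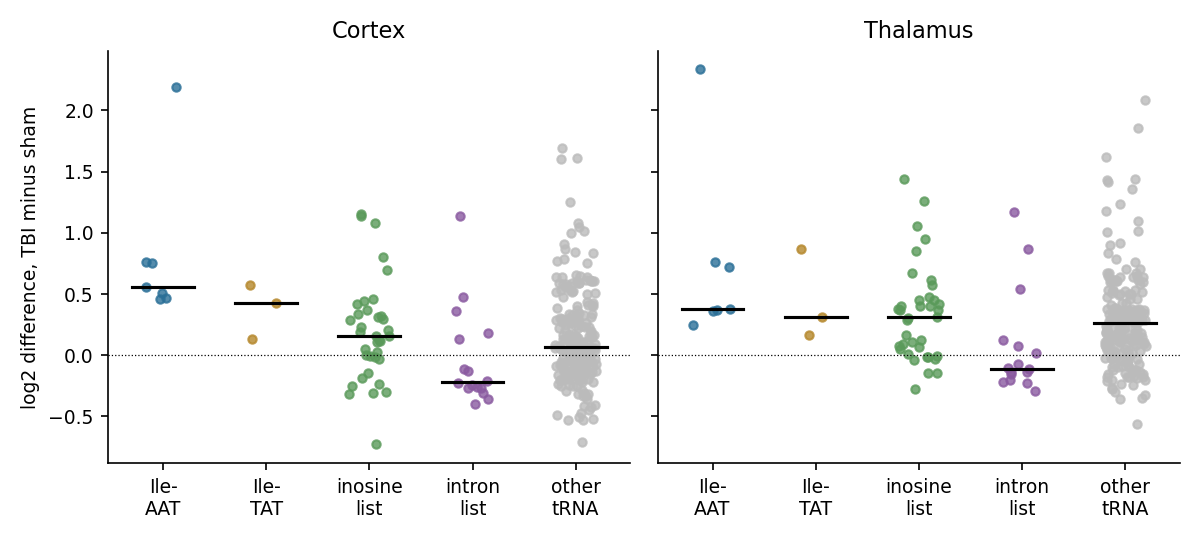
Estimated log2 difference between TBI and sham of every tRNA feature tested, with 1 point per feature and the median of each class as a bar, for Ile-AAT, Ile-TAT, the inosine list, the intron list and all other tRNA features. tRNA1652-IleAAT is the highest point in both regions (2.19 and 2.33), and the remaining Ile features lie inside the range of the other tRNAs.

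Likeness to the members was measured as Pearson's r of deviations from the group means over the 12 cortical libraries, which share library, depth and scaling, and is given as a description. The 5 features most like tRNA1652-IleAAT out of 644 were miR-350 (r = 0.85), miR-376b-3p (0.83), tRNA8813-AspGTC (0.81), tRNA3816-AspGTC (0.78) and miR-29c-3p (0.78). Over the 12 thalamic libraries the same 5 had r of 0.51, 0.40, 0.38, 0.23 and 0.57. No Ile feature was among them. The best placed of the other AAT features, tRNA2454-IleAAT, had 0.54 in cortex and 0.13 in thalamus, and tRNA3889-IleAAT had -0.53 and -0.22. For tRNA2353-IleTAT the 5 most alike were tRNA7274-GlyCCC (r = 0.86), tRNA4533-LysTTT (0.80), tRNA3825-ArgTCG (0.77), miR-344a-3p (0.76) and tRNA2185-AspGTC (0.74). In thalamus these had 0.36, 0.75, no value, -0.08 and 0.01, tRNA3825-ArgTCG not being among the thalamic features used here. tRNA1652-IleAAT and tRNA2353-IleTAT had r = 0.57 in cortex and -0.15 in thalamus.

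Other measures of the libraries differed between the groups to varying extents. tRNA reads made up 12.9% of the cortical table in TBI and 10.6% in sham, and 13.3% and 11.9% of the thalamic table, with overlap in both regions. The Ile features of the CPM table were 0.0743% of its tRNA reads in the TBI cortex and 0.0366% in the sham cortex, without overlap. In thalamus they were 0.130% and 0.0782%, and 4 of 6 TBI libraries exceeded the highest sham library. These shares cover 6 features in cortex and 10 in thalamus, so the regions are not comparable. Of the 6 cortical features, 5 entered the CPM table through TBI libraries, among them the chosen tRNA1652-IleAAT. The cortical gap was thus in part built in and is no test. Several of the 10 thalamic features may have entered their table in that way too. The 4 leukocyte miRNAs (miR-142-3p, miR-142-5p, miR-223-3p and miR-150-5p), all present, summed to between 708 and 1659 CPM in the TBI cortex and between 600 and 1002 CPM in the sham cortex. In thalamus they summed to between 851 and 2038 CPM and between 619 and 1269 CPM, with miR-223-3p at 0 in the lowest library of each group. The brain list summed to between 215914 and 298062 CPM in the TBI cortex and between 269629 and 394649 CPM in the sham cortex. Its members did not move together there. Mean miR-128-3p (164456 against 241180 CPM) and miR-9a-5p (82853 against 87683 CPM) were lower in TBI. Mean miR-124-3p (7101 against 5752 CPM) and miR-138-5p (1038 against 973 CPM) were higher. In thalamus it summed to between 127240 and 210006 CPM in TBI and between 181457 and 231829 CPM in sham. The muscle list (miR-1-3p, miR-133a-3p and miR-206-3p) had medians of 440 CPM in the TBI cortex (407 to 569.5) and 594 CPM in the sham cortex (363 to 752). Mean miR-1-3p and miR-206-3p were lower in the TBI cortex, and mean miR-133a-3p was higher (73.7 against 65.0 CPM). In thalamus the medians of the muscle list were 233 CPM (106 to 408) and 475 CPM (247 to 581). The epithelial list (miR-200a-3p, miR-200b-3p and miR-141-3p) had medians of 7.40 CPM in the TBI cortex (4.90 to 89.5) and 4.38 CPM in the sham cortex (1.78 to 6.26), and 6.67 CPM (1.55 to 34.7) and 6.86 CPM (3.53 to 7.99) in thalamus. The red cell list, with 3 of 4 miRNAs listed, had medians of 38.9 CPM (19.5 to 84.95) and 34.6 CPM (24.96 to 42.6) in the TBI and sham cortex, and 27.6 CPM (8.86 to 56.5) and 31.7 CPM (11.2 to 48.9) in thalamus. The part of any of these in the values of the Ile features was not tested.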

How the data were processed

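Per the study's methods, libraries were made from total RNA, and the cDNA libraries were size-selected for short inserts and sequenced. Reads were trimmed of adapters, mapped to the rat genome RGSC3.4 and counted per miRNA and tRNA. The aligner and the treatment of reads with several positions are not given in the sources used here. For cortex the authors deposited whole read counts of 1172 features, not normalized. For both regions the authors deposited CPM tables, filtered for low values and summing to 1000000 per library. Each CPM was the count times 1 constant per library wherever a count was deposited, and the thalamic tRNA values, divided by that constant, came out whole (266 of 266 in every library, tolerance 1e-06), which gave the thalamic reads. The CPM tables of miRNAs alone were not used.

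Groups and rat numbers came from the sample titles. The members and the lists of tRNAs and miRNAs were chosen with earlier results of these data known. Cortical counts of miRNAs and tRNA features were tested together with the edgeR 4.0.16 quasi-likelihood test (R 4.3.3, filterByExpr, TMM). Standard errors are the fold change over the square root of F. Thalamic features reaching 1 CPM in 6 or more libraries were tested on log2(CPM + 1) with limma 3.58.1 (trend). For region contrasts each library was rescaled over the 595 features in both tables and fitted in limma over 24 libraries, without a block. p-values were adjusted by Benjamini-Hochberg over all features of a fit, at a threshold of 0.05. Code was tested on simulated data. Named were the pair of members, all Ile features with a mean of at least 10 CPM in a region, the extremes of fold change per anticodon, the 5 most alike features, and the most abundant feature of each listed anticodon.

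The rat number pairs cortex and thalamus of 1 animal. Deviations from group means correlated between the libraries of a rat with a median r of 0.31 (range -0.23 to 0.61 over 12 rats, above 0.1 in 8). Alternatives covered scaling, filters, pseudocounts, DESeq2 1.42.0, edgeR on thalamic reads, the rat as a block and leaving out each rat.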

Additional observations from a re-analysis of the deposited data

Results flagged for a closer look

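tRNA3889-IleAAT in the TBI cortex had 1 library far from the others of its group, rat 45 with 13.9 CPM, where the next value was 7.52 CPM. The gap made up 0.696 of the range of the group, above Dixon's 95% critical value for 6 values. It was the sole such case among 64 groups of 6 examined, in which chance would give about 3.2.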

How the results depend on the processing

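tRNA1652-IleAAT passed in cortex and in thalamus under each scaling, pseudocount, filter and test tried and without each rat in turn, and leaving out a rat kept its log2 fold change between 2.07 and 2.35 in cortex and between 2.19 and 2.45 in thalamus. The exception was a minimum mean of 50 reads, which left no Ile feature to test. tRNA1652-IleAAT was chosen with this contrast known, so its passing under these settings describes it and is no test. Scaling by library size only gave 3 Ile features passing in cortex in place of 1, adding tRNA10837-IleAAT (1.10) and tRNA1602-IleAAT (1.08), where the median of all features stood at 0.30, with 52 of 55 called features higher (18 of 28 with TMM). The number of all features called in cortex was 43 with DESeq2, 7 with a mean of at least 50 reads and 9 to 28 without 1 rat (fewest without sham rat 50), so the background share moved with it. In thalamus edgeR on the reads called 23 features where limma called 14, with 1 Ile feature in each. Between sham regions, 2 Ile features passed with the rat as a block, 0 with TMM factors in limma, 0 in edgeR with TMM on the reads and 0 to 2 without 1 rat. All features called there numbered 130 without the block, 177 with it, 64 with TMM factors, 64 in edgeR and 87 to 191 without 1 rat. The block changed no other call.

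The isoacceptor ratio of cortex minus thalamus ran from -0.19 to 0.57 in sham rats and from -0.25 to 0.14 in TBI rats without 1 rat, and was 0.24 in TBI rats without tRNA1652-IleAAT. Over all 10 Ile features of the thalamic table, chosen after seeing the data, it was -0.057 in sham and 0.18 in TBI rats. Between TBI and sham in thalamus the gap was 2.16 with the members alone. It was 0.29 over the features of both CPM tables without tRNA1652-IleAAT. That contrast follows from which features were summed. Depth limited the low features, many of which had under 10 reads in a library.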
